A study of Mus musculus with 4 samples.

Results

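Expression of 8 homeobox and paired box transcription factor genes, Pax9, Pax3, Barx1, Lhx6, Lhx8, Shox2, Alx1 and Alx4, was described in mouse molar mesenchyme at embryonic day 13.5. The genes were taken by name from the 22072 gene symbols of the deposited tables, where all 8 were found, with 12 RefSeq transcripts. RNA sequencing was done on tissue cut from frozen sections by laser capture, and upper (maxillary) and lower (mandibular) molars were kept apart. Mutants were Bmp4f/f;Wnt1Cre, in which both alleles of the signalling ligand Bmp4 are floxed and Cre is driven by Wnt1 sequences active in the neural crest, the source of tooth mesenchyme. Controls, called wild type in the series title, were Bmp4f/+, with 1 floxed allele and no Cre named in their labels, so an effect of the Cre transgene cannot be told apart from that of the Bmp4 deletion. All embryos were of mixed strain background. Each of the 4 combinations of genotype and molar was 1 library, and the series description gives 3 pairs of control and mutant samples as pooled for RNA.

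These factors set up and maintain the identity of facial neural crest mesenchyme. In the early jaw, FGF signals from the oral epithelium are known to turn on Pax9, Barx1, Lhx6 and Lhx8 in the underlying mesenchyme, and BMP signals are known to restrict Pax9 and Barx1. Pax9, a paired box factor without a homeodomain, is needed for teeth to pass the bud stage. Barx1 marks the molar field, and the LIM homeodomain factors Lhx6 and Lhx8 act together in molar formation. Shox2, a paired-related homeodomain factor, is known for its part in the palate, jaw joint and limb. Alx1 and Alx4 are aristaless-like homeodomain factors of frontonasal and other craniofacial mesenchyme, and Pax3 acts in early neural crest, pigment cell and muscle precursors.

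Promoter sequences from RefSeq on build GRCm38.p6 were at hand for 5 of the 8 genes, the set used here having no entry for Pax3, Alx1 and Alx4. Those of Lhx6, Shox2, Pax9 and Barx1 are shown because the results below turn on these genes. Each is the 250 bases before a start site, 5′ to 3′ on the gene's strand. The deposited tables use build mm9, so no position here is shared with theirs. Capitals mark any match, on either strand, to TATAA (core of the TATA box), GGCGCC (a palindrome that BMP Smads can bind), TAATTA (a homeodomain core) or GGGCGG (a GC box, which may overlap a neighbouring match). Lhx6 has 3 entries, of which those for the upstream and the downstream start site are shown. The entry left out has its start site between them, at 36104533, with 57.2% G and C and 1 match to GGGCGG.
Lhx6 upstream start, chr2:36105409-36105658, minus strand: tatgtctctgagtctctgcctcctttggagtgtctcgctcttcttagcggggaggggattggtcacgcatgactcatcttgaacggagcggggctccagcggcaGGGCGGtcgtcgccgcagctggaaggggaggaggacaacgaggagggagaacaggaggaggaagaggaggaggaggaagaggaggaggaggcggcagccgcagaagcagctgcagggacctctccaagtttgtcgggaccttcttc
Lhx6 downstream start, chr2:36104061-36104310, minus strand: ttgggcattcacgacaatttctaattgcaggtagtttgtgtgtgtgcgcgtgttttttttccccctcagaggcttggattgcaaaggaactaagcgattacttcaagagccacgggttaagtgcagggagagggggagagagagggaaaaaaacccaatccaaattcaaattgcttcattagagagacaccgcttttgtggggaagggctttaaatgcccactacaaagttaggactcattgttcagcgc
Shox2, chr3:66981772-66982021, minus strand: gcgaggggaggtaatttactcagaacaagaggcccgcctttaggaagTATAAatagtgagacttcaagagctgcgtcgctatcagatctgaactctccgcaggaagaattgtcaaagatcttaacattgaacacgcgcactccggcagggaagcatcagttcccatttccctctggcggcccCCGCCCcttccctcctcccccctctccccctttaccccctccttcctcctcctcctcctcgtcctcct
Pax9, chr12:56695221-56695470, plus strand: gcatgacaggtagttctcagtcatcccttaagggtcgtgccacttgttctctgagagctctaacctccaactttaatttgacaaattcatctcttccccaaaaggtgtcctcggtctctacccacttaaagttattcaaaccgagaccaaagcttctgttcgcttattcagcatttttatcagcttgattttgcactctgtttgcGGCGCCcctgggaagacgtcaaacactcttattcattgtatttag
Barx1, chr13:48662786-48663035, plus strand: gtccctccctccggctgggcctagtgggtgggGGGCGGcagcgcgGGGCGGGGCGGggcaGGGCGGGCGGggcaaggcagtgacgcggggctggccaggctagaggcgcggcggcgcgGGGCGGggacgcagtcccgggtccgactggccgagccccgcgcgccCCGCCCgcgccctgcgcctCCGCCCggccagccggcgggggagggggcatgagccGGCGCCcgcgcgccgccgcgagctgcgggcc
The windows differed widely in base composition. Barx1 had 85.6% G and C and 8 matches to GGGCGG, a motif present in 33.0% of 32536 promoter windows of this length. The upstream Lhx6 window had 61.6% G and C and 1 such match, and the downstream one had 46.0% and none of the 4 motifs. Shox2 had 1 match to TATAA, 203 bases before its start site. At any position, TATAA is held by 22.7% of the windows. GGCGCC, held by 9.65% of the windows, had 1 match each in Pax9 and Barx1, and TAATTA (4.84% of the windows) had none in these 5. A match is a string of letters and not a measured binding site.

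The libraries held between 4820000 and 5550000 approximate reads on annotated transcripts. Values are FPKM, that is fragment numbers divided by transcript length and by library size, summed per gene. Bmp4 itself was at 24.8 and 27.2 FPKM in upper and lower control molars, against 4.75 and 4.90 FPKM in the mutant ones, so the genotype labels were borne out. The molar labels were borne out as well, since Pou3f3, a factor of the maxillary arch, was at 17.4 and 20.0 FPKM in the control and mutant upper molar against 2.56 and 4.09 FPKM in the lower. Of 10 tooth and facial mesenchyme markers all were expressed, and their summed FPKM lay between 552 and 566 in the 4 libraries. Single markers were less even than the sum. Osr2 was at 35.1 and 45.2 FPKM in upper and lower controls and 56.0 and 85.8 FPKM in mutants. Dlx2 was at 28.8 and 18.7 FPKM in controls and 24.6 and 11.7 FPKM in mutants. Skeletal muscle markers summed to between 3.04 and 3.57 FPKM (10 genes, Myf5, Pax7, Myod1 and Ckm at 0 in both controls). Schwann and glial markers summed to between 1.39 and 1.81 FPKM (8 genes), and epithelial markers to between 21.2 and 23.9 FPKM (9 genes).

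The 8 genes fell into a strongly expressed and a barely detected group. Barx1, Lhx6, Lhx8 and Pax9 each lay above at least 98.48% of all listed genes in every library. Shox2 was lower, between 9.19 and 31.6 FPKM. Alx4, Alx1 and Pax3 never exceeded 0.701 FPKM. FPKM is scaled to transcript length, and these levels are set side by side on that basis. Other sources of bias between genes, such as base composition, were not examined. In the control upper molar the order was Barx1 (97.0 FPKM, 95% counting interval 92.4 to 101.6), Lhx6 (95.5 FPKM, 92.5 to 98.4), Lhx8 (74.5 FPKM), Pax9 (57.4 FPKM) and Shox2 (9.19 FPKM), and the first pair did not differ beyond counting error. The mutant upper molar had the same order, with Barx1 at 118 FPKM and Lhx6 at 107 FPKM. The lower molars had Pax9 on top. In the control lower molar Pax9 was at 84.9 FPKM, above Barx1 at 74.2 FPKM (70.2 to 78.3) and Lhx8 at 72.4 FPKM (69.1 to 75.8), which overlapped in counting error, and above Lhx6 at 61.1 FPKM. In the mutant lower molar Pax9 at 108 FPKM was followed by Lhx8 at 88.3 FPKM, Lhx6 at 77.8 FPKM and Barx1 at 62.7 FPKM, so Barx1, the highest in both upper molars, was below Pax9, Lhx8 and Lhx6 here. These intervals cover counting error alone, and reads copied by amplification do not each stand for a separate molecule.

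**Figure D1:**
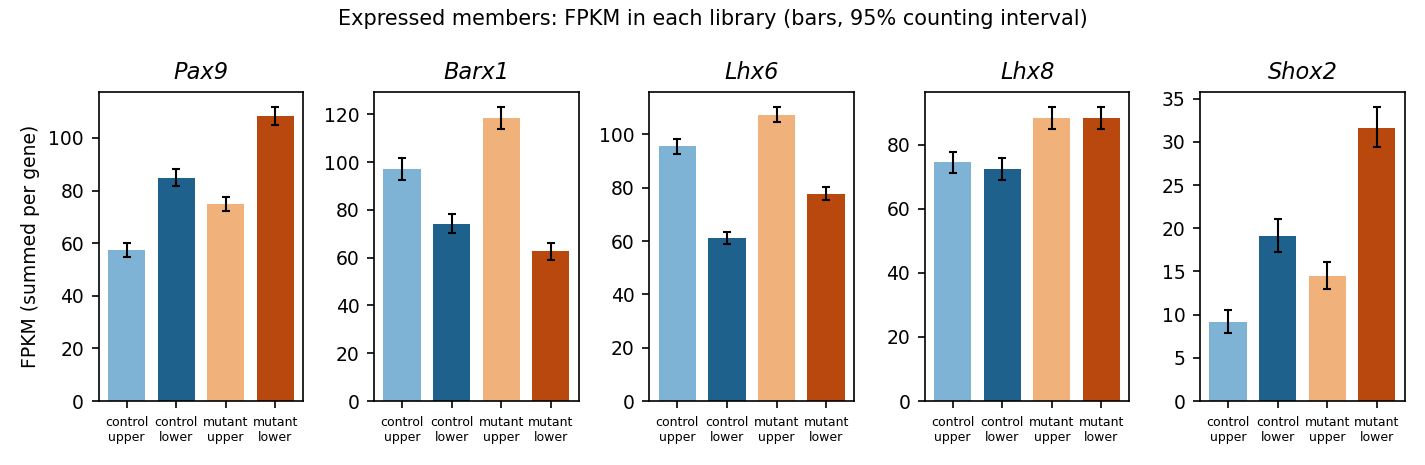
FPKM of the 5 strongly or moderately expressed genes (y axis, from 0, a scale of its own in each panel) in the 4 libraries (x axis), with bars for the library value and lines for the 95% counting interval. Pax9 and Shox2 are higher in both lower molars, Barx1 and Lhx6 in both upper molars, and Lhx8 has nearly equal values in upper and lower molars.

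The first comparison asked how the upper and lower molar mesenchyme differ. Shox2 and Pax9 were higher in the lower molar, Barx1 and Lhx6 were higher in the upper molar, and Lhx8 had nearly equal values in both. Of the 5 genes that averaged 1 FPKM or more, all expressed at 9.19 FPKM or more in every library, 2 were higher in both lower molars than in both upper ones, as were 12.2% of the 10502 genes tested, and 2 were lower, as were 21.2%. Compared within each genotype, 2 were higher in the lower molar both times, as were 20.8% of tested genes, and 2 were lower, as were 35%. limma called 1 of the 5 higher (Shox2, against 0.39% of tested genes) and 0 lower (against 0.333%, or 0.724% in either direction), and 4 had an unadjusted limma p under 0.05, against 10.2%.

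Shox2 (chromosome 3, 66777191 to 66785693, mm9, 1 transcript) showed the widest spread of the 5. It had 9.19 FPKM in the control upper and 19.1 FPKM in the control lower molar, from about 192 and 396 reads. In the mutants it had 14.5 FPKM in the upper and 31.6 FPKM in the lower molar. Both lower molars were thus above both upper ones, and the ratio of lower to upper was 2.08 in controls (95% counting interval 1.74 to 2.47) and 2.19 in mutants (1.92 to 2.50). Over both genotypes Shox2 rose by 1.03 ± 0.11 on the log2(FPKM + 1) scale from upper to lower molar (SE, limma adjusted p = 0.013, higher in the lower molar in 2 of 2 genotypes). The call ended without a filter on low values (adjusted p = 0.48), without a term for genotype (0.63), and when any single library was left out, the genotype term then also being dropped (adjusted p of at least 0.36).

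Pax9 (chromosome 12, 57796626 to 57812217, 1 transcript) differed in the same direction by less. Upper and lower control molars had 57.4 and 84.9 FPKM, and the mutant ones 74.9 and 108 FPKM. The lower to upper ratio was 1.48 in controls and 1.45 in mutants (95% counting intervals 1.39 to 1.57 and 1.38 to 1.52). The difference of 0.54 ± 0.10 (log2, SE) did not pass the test over all genes (limma adjusted p = 0.092).

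Barx1 and Lhx6 had their higher values in the upper molars. Barx1 (chromosome 13, 48758405 to 48761876, 1 transcript) had 97.0 FPKM in the control upper and 74.2 FPKM in the control lower molar, and 118 and 62.7 FPKM in the mutants. The lower to upper ratio was 0.765 in controls (0.711 to 0.822) and 0.529 in mutants (0.493 to 0.568). These counting intervals do not overlap, and the difference between genotypes has no replicate to test it. Lhx6 (chromosome 2, 35937473 to 35960928, 4 transcripts) had 95.5 FPKM in the control upper and 61.1 FPKM in the control lower molar, and 107 and 77.8 FPKM in the mutants, with ratios of 0.640 and 0.724. Over both genotypes the differences were -0.64 ± 0.14 for Barx1 and -0.55 ± 0.10 for Lhx6 (log2, SE), neither past the test (limma adjusted p = 0.15 and 0.11).

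Lhx8 (chromosome 3, 153969258 to 153993524, 1 transcript) is the paralog of Lhx6. It had 74.5 and 72.4 FPKM in upper and lower control molars, against 88.3 FPKM in both mutant ones. The molar difference was -0.02 ± 0.10 (log2, SE, 95% interval -0.26 to 0.22, limma adjusted p = 0.98), and its sign turned to 0.02 after rescaling by median ratios. Consequently the ratio of Lhx6 to Lhx8 FPKM was above 1 in upper molars (1.28 in control, 1.22 in mutant) and below 1 in lower ones (0.844 and 0.881). The ratio of Barx1 to Pax9 FPKM ran from 1.69 and 1.58 in the control and mutant upper molars to 0.874 and 0.578 in the lower ones.

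Jaw position genes were listed for comparison. Of 6 mandibular position markers 3 were tested, and limma called Dlx5 and Dlx6, homeobox genes of the lower jaw, higher in the lower molar (adjusted p = 0.0035 for both). Dlx5 was at 14.6 and 39.2 FPKM in upper and lower control molars, against 10.1 and 28.9 FPKM in mutants, and Dlx6 rose by 1.58 ± 0.12 (log2, SE). The third, Dlx3, was at 3.00 and 2.11 FPKM in controls and 0.452 and 0.265 FPKM in mutants, not called by molar (limma adjusted p = 0.63) and called lower in the mutant (-1.38 ± 0.16, adjusted p = 0.024, and 0.061 after rescaling). Of 5 frontonasal, maxillary and palate markers 1 was tested, Pou3f3, and its difference was -2.21 ± 0.12 (log2, SE, limma adjusted p = 0.0016). Pax7, a paired box relative of Pax3, was at or under 0.0374 FPKM in every library. Tbx22 and Meox2, genes of the palate, were at or under 0.505 and 1.41 FPKM.

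The second comparison asked how these factors differ after loss of Bmp4 in neural crest mesenchyme. Pax9, Lhx6, Lhx8 and Shox2 were higher in the mutant than in the control in both molars, and Barx1 was higher in the upper molar but lower in the other. Thus 4 of 5 genes were higher in both molars and 0 lower, against 27.2% and 32.4% of all tested genes. limma called 0 of the 5 higher, against 0.343% of tested genes, and 0 lower, against 0.457% (0.8% in either direction), while 4 of the 5 had an unadjusted limma p under 0.05, against 13.2%. The median log2 difference of the 5 was 0.28 in upper and 0.34 in lower molars, beside 0.02 and -0.05 over all tested genes.

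Shox2 had the largest of these differences. Read by molar, it was at 14.5 FPKM in the mutant against 9.19 FPKM in the control upper molar, a ratio of 1.58 (95% counting interval 1.31 to 1.88), and at 31.6 against 19.1 FPKM in the lower molar, a ratio of 1.66 (1.47 to 1.88). The genotype difference over both molars was 0.65 ± 0.11 (log2, SE, 95% interval 0.40 to 0.90, limma adjusted p = 0.057, higher in the mutant in 2 of 2 molars). It missed the threshold, and passed it with a filter of at least 5 FPKM (adjusted p = 0.0069) and without transcripts under 0.3 kb (0.027). Leaving out 1 library, and with it the molar term, gave 0.16 or 1.14 when the upper or lower control was dropped, and 1.19 or 0.11 when it was the upper or lower mutant, none past the threshold.

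Pax9 was 1.30-fold higher in the mutant upper molar (1.23 to 1.38) and 1.28-fold higher in the mutant lower molar (1.22 to 1.34). Its 0.36 ± 0.10 over both molars did not pass the test (log2, SE, limma adjusted p = 0.21). With 1 library and the molar term left out it was 0.085 or 0.64 when the upper or lower control was dropped, and 0.63 or 0.099 when the upper or lower mutant was dropped. For Lhx8 the ratios were 1.19 and 1.22 in the upper and lower molar. Lhx8 was the 1 gene of the 5 whose mutant libraries both exceeded both controls, at 88.3 FPKM against 74.5 FPKM or less, as did 18.4% of tested genes. The Lhx6 ratios were 1.13 (upper) and 1.27 (lower). Their differences of 0.26 ± 0.10 each did not pass the test (log2, SE, limma adjusted p = 0.35 for Lhx8 and 0.37 for Lhx6). Without the control lower library that of Lhx6 turned to -0.062.

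For Barx1 the molars differed in direction. It was 1.22-fold higher in the mutant upper molar (95% counting interval 1.15 to 1.30) and at 0.845 of the control in the lower molar (0.781 to 0.914). Over both molars this left 0.02 ± 0.14 (log2, SE, limma adjusted p = 0.97). The genotype differences of the molars were 0.52 apart, more than in all but 8.18% of tested genes, whereas those of Pax9 were 0.03 apart, a smaller gap than in 90.9% of tested genes.

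**Figure D2:**
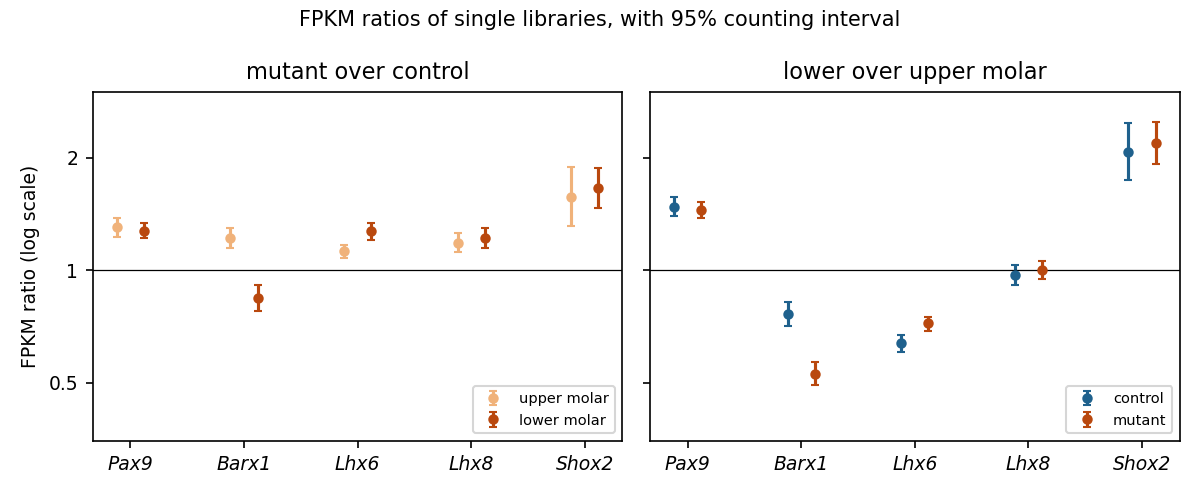
Ratios of FPKM between single libraries on a log axis for the 5 tested genes, mutant over control by molar (left) and lower over upper molar by genotype (right), with points for the ratio and lines for the 95% counting interval. Mutant over control ratios are above 1 in all cases but Barx1 in the lower molar, and lower over upper ratios are near 2 for Shox2 and near 1 for Lhx8.

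**Figure D3:**
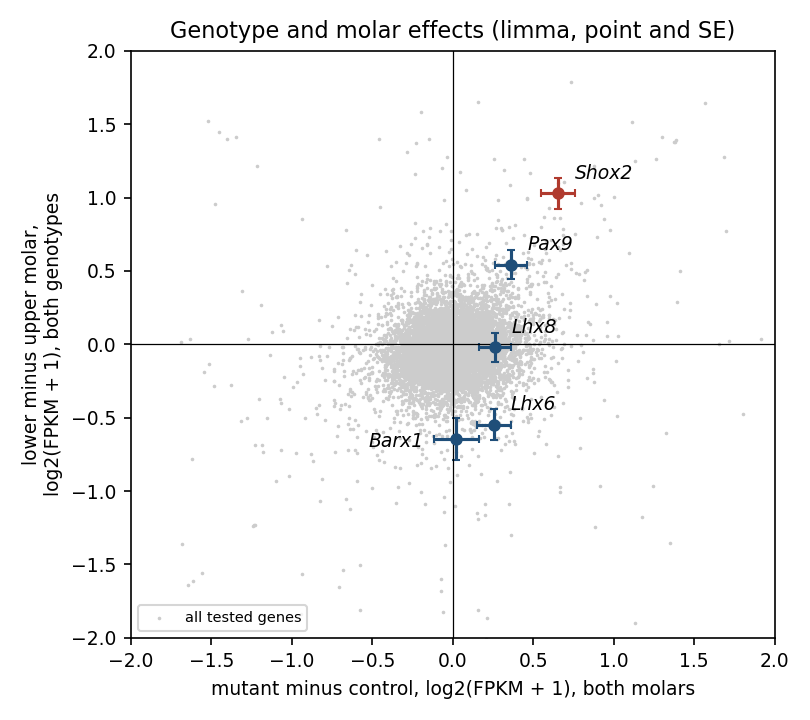
Genotype effect (x axis) against molar effect (y axis) from limma, both as differences of log2(FPKM + 1), for the 5 genes (points with SE) over all tested genes (grey; both axes end at 2 and -2, and genes beyond them are not drawn). Shox2, in red, is the gene that passed the molar test, and the other 4 in blue passed neither test.

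limma's p-values rest on how far the effect disagreed between molars or genotypes, with 1 residual and 5.77 prior degrees of freedom, and not on the spread between embryos or pools. The labels do not say whether upper and lower molars came from the same embryos. In captured tissue a change in the share of cells that express a gene cannot be told apart from a change per cell. Summed levels of some markers of other cells differed in value between genotypes. Cartilage and bone markers (8 genes) summed to 18.7 and 21.1 FPKM in upper and lower control molars, against 8.35 and 15.5 FPKM in the mutants, with Bglap at 0 throughout. The bone genes Sp7 (8.92 and 7.04 FPKM in controls, 1.92 and 4.25 FPKM in mutants) and Alpl (4.53 and 7.13 FPKM, then 1.99 and 4.99 FPKM) had lower values in mutants, while the cartilage gene Col2a1 had 4.20 and 5.96 FPKM in controls and 4.17 and 6.23 FPKM in mutants. Endothelial markers (8 genes) summed to 43.0 and 40.4 FPKM in controls and 31.1 and 36.9 FPKM in mutants. Neuron markers (8 genes) summed to 2.40 and 3.71 FPKM in controls and 7.94 and 6.41 FPKM in mutants. Of these, Nefl, a neurofilament gene, was at 0.632 and 1.52 FPKM in controls and 6.89 and 4.15 FPKM in mutants, whereas Tubb3, a neuronal tubulin gene, was higher in both controls, at 0.817 FPKM or more, than in the mutants, at 0.0858 and 0.399 FPKM. The part of these cells in the results was not tested.

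Lhx6 transcripts were resolved by start site. The deposited table lists 4 RefSeq transcripts that share the end at 35937473 and start at either 35960928 or 35959580 on mm9, 1348 bases apart, and the RefSeq start sites of the sequences shown above lie the same distance apart on GRCm38.p6. The downstream start carried most of the signal in each library, with 83.5 and 55.8 FPKM in upper and lower control molars, against 93.1 and 74.9 FPKM in the mutants. The upstream start had 11.9 and 5.25 FPKM in controls, against 14.3 and 2.91 FPKM in mutants. Its share of Lhx6 FPKM was therefore 12.5% and 13.3% in the control and mutant upper molar, and 8.60% and 3.74% in the lower ones. Upper molars had the higher share in both genotypes, and the mutant lower molar had the lowest. The transcripts overlap, so these shares are Cufflinks estimates with no error given in the files, and they have no replicate.

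**Figure D4:**
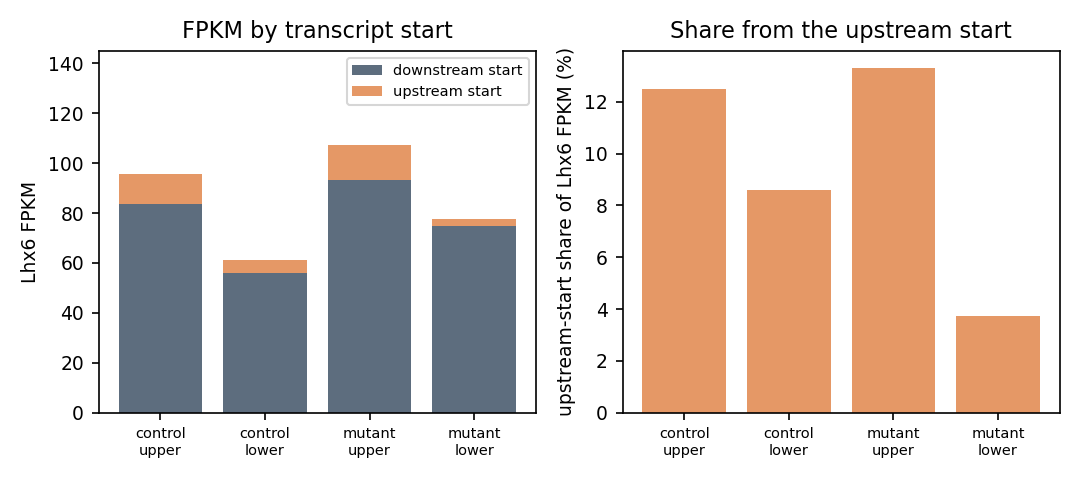
Lhx6 FPKM by transcript start (left, stacked bars) and the share of the upstream start in percent (right) in the 4 libraries. The upstream share is 12.5% and 13.3% in upper molars and 8.60% and 3.74% in lower molars.

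Alx4, Alx1 and Pax3 had means under 1 FPKM and were not tested. Alx4 (chromosome 2, 93482591 to 93521496) had 0.701 and 0.372 FPKM in upper and lower control molars, against 0.381 and 0.603 FPKM in the mutants, from about 48, 25, 29 and 44 reads. Alx1 (chromosome 10, 102470481 to 102491411) had 0.443 and 0.0807 FPKM in controls, against 0.104 and 0.261 FPKM in mutants, from about 14, 3, 4 and 9 reads. Both aristaless-like genes were highest in the control upper and next highest in the mutant lower molar. For Alx4 the mutant to control ratio was 0.544 in the upper molar (95% counting interval 0.324 to 0.862) and 1.62 in the lower molar (0.975 to 2.78). For Alx1 it was 0.235 (0.0604 to 0.802) and 3.24 (0.693 to 15.9).

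Pax3 (chromosome 1, 78097842 to 78193711, 2 transcripts) was close to the limit of detection. It had 0.0855 and 0.114 FPKM in upper and lower control molars, from about 4 and 5 reads, and 0 FPKM in both mutant libraries, where its estimates had the status OK. At these depths 3 reads would have been 0.0557 FPKM in the mutant upper and 0.0588 FPKM in the mutant lower molar. A count of 0 allows up to 3.69 reads (exact 95% Poisson interval). The mutant to control ratio had a 95% counting interval of 0 to 1.34 in the upper molar and 0 to 1.01 in the lower. With few reads and 1 library per group, the difference was not tested. Melanocyte markers (8 genes) summed to 6.21 and 6.86 FPKM in upper and lower control molars, against 8.06 and 9.36 FPKM in the mutants. Of these, Kit, a receptor of pigment cell precursors and other cells, was at 2.56 and 3.36 FPKM in controls and 4.94 and 6.15 FPKM in mutants, and limma called it higher in the mutant (0.73 ± 0.11, log2, SE, adjusted p = 0.048, and 0.081 after rescaling). Kit rose by more than the sum did in both molars, so the other genes of the list together were lower in the mutants. Among them Ednrb was at 1.14 and 1.001 FPKM in upper and lower controls, against 1.02 and 0.750 FPKM in mutants. Pmel was higher in the mutant in both molars, at 0.0829 FPKM or less. The pigment enzyme gene Tyr lay between 1.46 and 1.82 FPKM and Mitf, a pigment cell factor, between 0.492 and 0.681 FPKM. Tyrp1 was at 0 in all 4 libraries and Dct in 3 of them. The muscle gene Myod1 was at or under 0.0438 FPKM. The part of these cells in the Pax3 values was not tested.

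**Figure D5:**
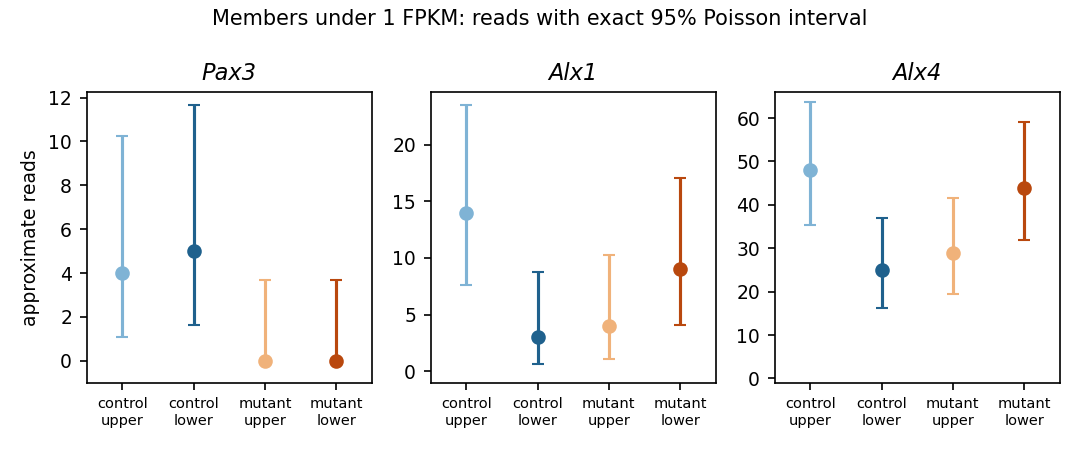
Approximate read numbers of Pax3, Alx1 and Alx4 (y axis, a scale of its own in each panel) in the 4 libraries (x axis), with exact 95% Poisson intervals. Alx4 has 25 to 48 reads, Alx1 has 3 to 14, and Pax3 has 4 and 5 in controls and 0 in both mutants.

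Relatives of these factors were mostly at or near 0. Of 21 relatives listed (among them other Pax, Barx, LIM homeodomain and Prrx genes), 9 were at 0 in all libraries and 2 reached a mean of 1 FPKM, the paired-related genes Prrx1 and Prrx2 of facial mesenchyme. Prrx1 was at 139 and 144 FPKM in upper and lower control molars, against 135 and 132 FPKM in the mutants. Prrx2 was at 25.4 and 20.5 FPKM in controls and 23.2 and 10.7 FPKM in mutants, lowest in the mutant lower molar as Barx1 was. limma called 0 of the 2 for genotype or molar, with 1 at an unadjusted p under 0.05 in each, against 13.2% and 10.2% of tested genes. Barx2, the paralog of Barx1, did not exceed 0.338 FPKM.

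The cofactors through which LIM homeodomain factors act were expressed. Of 10 listed, 8 were tested, and limma called 0 for genotype and 0 for molar. An unadjusted limma p under 0.05 was found for 2 and 0 of them, against 13.2% and 10.2% of tested genes. Ldb1, the adaptor that dimerises LIM factors, was at 26.6 and 22.2 FPKM in upper and lower control molars, against 23.1 FPKM in both mutants. Its paralog Ldb2 was at 18.4 and 17.5 FPKM in controls and 25.04 and 21.5 FPKM in mutants. Lmo4, a LIM-only protein that competes for Ldb1, was at 28.9, 26.5 and 28.8 FPKM in the control upper, control lower and mutant lower molar and at 20.2 FPKM in the mutant upper molar. Ssbp3, which stabilises Ldb1 complexes, lay between 35.4 and 39.2 FPKM.

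Signals that act upstream were examined from a list of 16 ligands and receptors, of which 10 were tested. limma called 1, Bmp4, lower in the mutant (-2.21 ± 0.11, log2, SE, adjusted p = 0.0008), and 0 for molar. An unadjusted limma p under 0.05 was found for 3 by genotype, with the targeted gene Bmp4 among them, and 4 by molar. The shares over all tested genes were 13.2% and 10.2%. Fgf8, the epithelial inducer of Lhx6, Lhx8 and Barx1, was listed at 0 in every library of this mesenchymal capture. Fgfr1, a receptor for FGF ligands in mesenchyme, was at 19.4 and 26.6 FPKM in upper and lower control molars, against 25.6 and 29.1 FPKM in the mutants. Fgfr2, another FGF receptor, was at 8.48 and 10.3 FPKM in controls and 4.99 and 7.09 FPKM in mutants, not called for genotype (limma adjusted p = 0.11). Ednra, the endothelin receptor of arch mesenchyme, was at 33.4 and 29.1 FPKM in controls and 43.7 and 30.8 FPKM in mutants. Bmpr2, the type II BMP receptor, was at 30.8 and 28.1 FPKM in controls and 24.8 and 19.2 FPKM in mutants (limma adjusted p = 0.21, unadjusted 0.0084), and the ligand gene Bmp7 at 1.06 and 1.15 FPKM in controls and 2.23 and 1.42 FPKM in mutants (adjusted p = 0.38). Bmp2, another BMP ligand gene, was at 0.598 and 1.30 FPKM in upper and lower control molars, against 0.636 and 2.41 FPKM in the mutants (limma adjusted p = 0.18 by molar).

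Genes tied to these factors in earlier work formed a list of 13, of which 7 were tested. For genotype limma called Osr2 and Sfrp2 higher and Bmp4, the targeted gene, lower (0.8% of tested genes were called in either direction). For molar it called Sfrp1 higher in the lower molar (0.724% in either direction). An unadjusted limma p under 0.05 was found for 7 and 5 of the 7, against 13.2% and 10.2% of tested genes. The 7 include Bmp4, changed by design, and the list was chosen with earlier results of these data known. These shares are therefore no test of the list. Sfrp1, a secreted Wnt antagonist that Barx1 is known to activate in the stomach, was at 25.6 and 49.2 FPKM in upper and lower control molars, against 29.9 and 63.0 FPKM in the mutants, a rise of 0.99 ± 0.10 (log2, SE, limma adjusted p = 0.014). Between molars Sfrp1 was thus higher where Barx1 was lower, in both genotypes. Between genotypes this held in the lower molar only. In the upper molar both had the higher value in the mutant, with Barx1 at 118 against 97.0 FPKM. Osr2, which acts with Pax9 in palate and tooth, was at 35.1 and 45.2 FPKM in controls and 56.0 and 85.8 FPKM in mutants, highest in the mutant lower molar as Pax9 and Shox2 were. It rose by 0.78 ± 0.11 in the mutant (log2, SE, limma adjusted p = 0.039, and 0.074 after rescaling by median ratios). Sfrp2, another secreted Wnt antagonist, was at 129 and 157 FPKM in controls and 254 and 256 FPKM in mutants, a rise of 0.84 ± 0.11 (log2, SE, limma adjusted p = 0.033, and 0.059 after rescaling). The calls of Bmp4, Osr2, Sfrp2, Sfrp1, Dlx3, Dlx5, Dlx6, Pou3f3 and Kit each ended without a filter on low values and in at least 2 of the 4 fits with a library left out. Runx2, a factor of bone and tooth mesenchyme, was at 62.2 and 48.2 FPKM in controls and 39.5 and 31.0 FPKM in mutants (limma adjusted p = 0.056). Msx1, a partner of Pax9, was at 150 and 126 FPKM in controls and 135 and 98.4 FPKM in mutants, and Lef1, a Wnt effector, at 51.1 and 43.7 FPKM in controls and 39.4 and 29.1 FPKM in mutants, neither past the test.

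Shox2 was the 1 gene of the 8 with a range of at least 1 on the log2(FPKM + 1) scale. The genes with the most similar profile were sought among 4983 candidates averaging 5 FPKM or more. The members and genes with provisional, small RNA or pseudogene symbols were left out of the candidates. Likeness was the Euclidean distance between the centred log2(FPKM + 1) values of the 4 libraries, and 7 candidates lay within 0.3 of Shox2. The closest was Fibin, a secreted protein gene, at a distance of 0.17, with 4.95 and 9.65 FPKM in upper and lower control molars, against 8.30 and 16.1 FPKM in the mutants. Thbs1, the matrix glycoprotein thrombospondin 1, followed at 0.20, with 2.95 and 6.77 FPKM in controls and 4.35 and 9.81 FPKM in mutants. Tnfrsf19, a receptor of the tumour necrosis factor receptor family, was at 0.21. These are likenesses over 4 libraries and carry no test.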

How the data were processed

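Per the submitters' processing notes, alignment used TopHat 1.4.1, Bowtie 0.12.7 and build mm9. The authors' deposited tables give FPKM and a coverage signal for 28107 RefSeq transcripts in Cufflinks layout, per the file headers. The Cufflinks version, its strand option and its handling of multiply aligned reads are not given in the sources used here. FPKM was summed per gene symbol. The deposited coverage times length, divided by 44.2 bases per read (from genes with a single read), gave approximate reads, and exact 95% Poisson and binomial intervals were taken from these. Coordinates count from 1.

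The 10502 genes averaging 1 FPKM or more were tested with limma 3.58.1 in R 4.3.3 on log2(FPKM + 1), with additive genotype and molar terms, an intensity trend, two-sided p and Benjamini-Hochberg adjustment at 0.05 over all tested genes. The scripts were checked on simulated data. Within 1 molar or genotype no test was made. Named genes were the 8 members, Bmp4, the 3 genes most like a member with a range of at least 1, and up to 4 genes per list, effect and contrast. Lef1, Ssbp3 and the genes near 0, the Lhx6 start sites, the ratios between members, the motifs and the promoters shown were chosen after values were seen. The members and lists were chosen with earlier results of these data known. Alternatives were other pseudocounts (0.1 and 0.5), filters, rescaling by median ratios, no trend, no short transcripts, no term for the other factor and leaving out each library, which also drops that term. Some listed genes are not reported here by name. Older symbols and promoters came from RefSeq tables of GRCm38.p6.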

Additional observations from a re-analysis of the deposited data

Results flagged for a closer look

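Barx1 was flagged because its genotype difference had opposite signs in the molars, 0.28 in the upper and -0.24 in the lower (log2(FPKM + 1)), which is -0.52 from upper to lower. With 1 library each, the difference was not tested. Of all tested genes 40.2% had opposite signs in this comparison.

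Alx1 and Alx4, both under the expression filter, had opposite signs as well. Their genotype differences were -0.39 and 0.22 for Alx1 and -0.30 and 0.22 for Alx4 in the upper and lower molar, 0.61 and 0.52 apart. By molar, the lower minus upper difference was -0.42 in control and 0.19 in mutant for Alx1 and -0.31 and 0.22 for Alx4, again 0.61 and 0.52 apart. Neither was tested, and the reads behind a value ranged from about 3 to 48.

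Lhx8 had a lower minus upper difference of -0.04 in controls and 0.00054 in mutants, 0.041 apart. This was not tested, and 44.0% of tested genes had opposite signs there.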

How the results depend on the processing

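No paired analysis was possible because the labels carry no replicate numbers and each group has 1 library. Of the members' tests, Shox2 for molar was the call made, and it ended without a filter on low values, without a term for genotype (both 1.03, log2) and in each fit with a library left out (0.68 to 1.38, adjusted p at least 0.36). Calls were gained for Shox2 by genotype (0.65) and for Pax9 (0.54) and Lhx6 (-0.55) by molar with a filter of at least 5 FPKM and with short transcripts (under 0.3 kb) removed, and for Barx1 by molar (-0.64) with that filter alone. Signs turned in fits with a library left out, where the other factor's term is dropped too and genotype and molar partly coincide. The genotype effect of Barx1, 0.02, ranged from -0.43 (without the mutant upper library) through -0.17 (without the control lower library) to 0.48, and that of Lhx6 from -0.062 (without the control lower library) to 0.57. The molar effect of Lhx8 ranged from -0.16 to 0.12, with 0.12 without the control lower and 0.10 without the mutant upper library, and was 0.023 after rescaling. Thbs1, named for its likeness to Shox2, turned from a genotype effect of 0.46 to -0.031 without the control upper and -0.049 without the mutant lower library, in a range up to 0.96.

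The cause of other changes was not tested. Over all genes, limma called 36 higher and 48 lower in the mutant, and 41 higher and 35 lower in the lower molar. These counts were 83 higher by genotype, and 64 and 63 by molar, with at least 5 FPKM; 65, 70 and 69 with short transcripts removed; 0, 0, 0 and 0 with no filter, where 1590 genes for genotype and 1402 for molar had an unadjusted p under 0.05; 12 and 26 by genotype without a trend; 6 and 8 by genotype and 18 lower by molar after rescaling; and 3, 4, 4 and 8 without a term for the other factor. Leaving out a library gave 1 to 10 higher and 4 to 8 lower by genotype, and 0 to 3 higher and 0 to 18 lower by molar; the 0 calls came without the mutant lower library (407 genes at an unadjusted p under 0.05 for molar). Of the members' differences within a molar or genotype, 3 of 120 values moved by more than counting error, all after rescaling and between mutant molars. Other filters and the removal of short transcripts could not change these differences, so many of the 120 values were fixed in advance. Planned counts of genes past 2-fold between single libraries are not given here, a choice made after the results were seen. Approximate reads of 14 or fewer limit Alx1 and Pax3.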
